A study of Mus musculus with 4 samples.

Results

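The genes described here are the immunoglobulin heavy (Ighv) and kappa (Igkv) variable gene segments detected in single cells of mouse colon tumours. Members were selected on measured UMI counts: a gene was kept where its symbol begins with Ighv or Igkv and it held at least 10 UMIs over the passing cell barcodes. A UMI is a tag that marks a single captured molecule, and a barcode passed with at least 500 UMIs, at least 200 genes and at most 20% mitochondrial UMIs. This left 154 genes, 83 Ighv and 71 Igkv, of 345 such symbols (185 Ighv and 160 Igkv) among 31053 genes. Of the others, 118 had 0 UMIs and 73 had 1 to 9.

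The tumours grew in female C57BL/6 mice given 12.5 mg/kg of the carcinogen azoxymethane (AOM) and several 5-day courses of dextran sulphate sodium (DSS), which causes colitis, at 2.5% and finally at 2%, and were collected 30 days after DSS ended. The labels name 4 groups of 1 sample each: CD45+ immune and CD45- non-immune cells, each from Egfr fl/fl controls and from EgfrΔMYL mice, which lack Egfr in the myeloid lineage. All 4 groups carried AOM/DSS tumours, and the Cre driver and the number of mice per sample are not given in the sources used here. The counts form a matrix of 18026 barcodes with 4 suffixes, which no source used here pairs with the samples, so no genotype or sort was compared and each suffix is given by itself, without a test.

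Antibody-producing cells assemble a heavy chain from V, D and J segments and a light chain, kappa or lambda, from V and J segments. Allelic exclusion normally leaves each cell with a productive heavy chain and a productive light chain, and these segments are then shared by the descendants of that cell. Plasma cells, the secreting end stage, transcribe the rearranged genes at very high levels, and in the gut wall most of them make IgA, whose heavy constant gene is Igha and whose polymers are linked by the J chain (Jchain).

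Plasma cells were taken as passing barcodes with Jchain at 0.5% of UMIs or more and at least 3 UMIs of the chaperone gene Mzb1. B cells had at least 2 UMIs of the receptor subunit Cd79a and at least 1 of the surface marker Ms4a1. There were 423 plasma cells, with 1, 4, 111 and 307 in suffixes 1 to 4, and 1505 B cells, with 3, 1, 1092 and 409. A further 37 barcodes, 11 in suffix 3 and 26 in suffix 4, met both rules and were kept apart. Plasma cells held a median of 33236 UMIs and B cells 4290. Across suffixes, 24 barcode sequences were shared among all barcodes and 14 among the 14198 passing ones, but none within the plasma or within the B cells. No doublet caller was run. The suffixes 1 to 4 held 9246770, 17158831, 37642375 and 65481274 UMIs, and their passing cells had medians of 4507, 3391, 4933 and 5177 UMIs.

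The 2 names were checked against marker genes. Of 9 plasma markers, of which the rule used Jchain and Mzb1, 8 were at least 2-fold higher in plasma than in B cells, among them the surface receptor Tnfrsf17 at 153.5 against 0.246 CPM (counts per 1000000 UMIs of the class). Irf4 was the exception, with a log2 fold of -0.76, which turns to 0.78 when immunoglobulin UMIs are left out of the scaling. All 10 B markers, of which the rule used Cd79a and Ms4a1, were at least 2-fold lower in plasma cells. Of all 17469 genes with at least 10 UMIs, 43.7% were lower and 3.1% higher. With immunoglobulin UMIs left out of the scaling, 9 of the 10 B markers were lower and Cd79a stood at -0.74, while 1723 of the 17469 genes were lower. Markers of other lineages were present as well. Over 15 markers of T cells, macrophages, neutrophils and epithelium, 273 of 423 plasma cells (64.5%) and 205 of 1505 B cells (13.6%) held at least 3 UMIs. This fixed count favours the plasma cells, which held more UMIs per cell. Relative to depth the order was reversed, with 2.93 UMIs of these markers per 10k UMIs in plasma cells and 8.96 in B cells. In plasma cells the marker seen in most cells was Epcam, with 1108 UMIs in 321 cells, while the other epithelial markers Krt8, Krt18 and Cdh1 were seen in 15, 27 and 3 cells. The macrophage markers C1qa and C1qb held 1130 and 1022 UMIs, in 86 and 112 cells. Without Epcam, 113 plasma cells (26.7%) held at least 3 UMIs of the remaining markers. These still include Cd2, listed as a T cell marker, which was seen in 142 plasma cells (33.6%) and 573 B cells (38.1%). The T cell markers Cd3e, Cd3d, Cd3g and Trac were seen in 14, 19, 19 and 22 plasma cells. Whether Cd2 marks another lineage here was not tested, and every count of other-lineage UMIs below includes it. The part of doublets and free RNA in these values was not tested.

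A V gene was called dominant in a cell when it held at least 3 UMIs, at least 50% of the UMIs of all Ighv (or all Igkv) members and more than any other member. How far near-identical genes can be told apart bears on every call, so 4 pairs of close relatives are shown first. Each line is the last 300 bases of the spliced transcript, 5′ to 3′ on the gene's strand, from GENCODE vM21 on GRCm38 (mm10), and capitals mark the aligned bases at which the partners differ. These genes lie in the heavy locus on chromosome 12 and the kappa locus on chromosome 6, each has a leader exon and a V exon, and the coding sequence runs to the 3′ end of the gene model. Ighv1-53 (chr12:115158403-115158835, minus strand) and Ighv1-55 (chr12:115208095-115208591, minus strand) differ at 15 of these bases.
Ighv1-53: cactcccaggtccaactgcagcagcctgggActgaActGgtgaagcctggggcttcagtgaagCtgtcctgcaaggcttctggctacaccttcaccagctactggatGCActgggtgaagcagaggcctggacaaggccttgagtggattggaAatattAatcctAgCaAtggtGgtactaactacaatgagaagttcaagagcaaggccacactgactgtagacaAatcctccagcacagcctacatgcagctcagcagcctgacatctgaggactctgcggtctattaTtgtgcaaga
Ighv1-55: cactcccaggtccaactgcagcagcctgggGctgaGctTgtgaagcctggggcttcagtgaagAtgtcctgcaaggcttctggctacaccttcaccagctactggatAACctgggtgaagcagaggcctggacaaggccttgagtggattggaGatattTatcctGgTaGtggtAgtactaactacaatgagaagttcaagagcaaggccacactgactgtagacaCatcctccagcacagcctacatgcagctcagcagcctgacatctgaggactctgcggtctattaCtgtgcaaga

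Ighv1-72 (chr12:115757984-115758461, minus strand) and Ighv1-62-3 (chr12:115460999-115461485, minus strand) differ at 3 bases and share a run of 220.
Ighv1-72: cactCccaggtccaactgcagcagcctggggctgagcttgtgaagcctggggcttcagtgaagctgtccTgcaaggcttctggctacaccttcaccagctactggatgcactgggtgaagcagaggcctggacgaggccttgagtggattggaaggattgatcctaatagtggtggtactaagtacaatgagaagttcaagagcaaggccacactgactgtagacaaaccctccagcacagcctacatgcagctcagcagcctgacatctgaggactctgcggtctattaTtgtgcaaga
Ighv1-62-3: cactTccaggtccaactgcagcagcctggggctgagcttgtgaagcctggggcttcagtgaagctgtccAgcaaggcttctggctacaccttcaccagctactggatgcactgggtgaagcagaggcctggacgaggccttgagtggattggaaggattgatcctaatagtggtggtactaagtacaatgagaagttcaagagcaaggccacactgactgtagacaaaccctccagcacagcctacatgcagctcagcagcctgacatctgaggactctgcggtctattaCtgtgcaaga

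Igkv1-110 (chr6:68270485-68271267, plus strand) and Igkv1-117 (chr6:68121046-68121827, plus strand) differ at 10 bases and share a run of 142.
Igkv1-110: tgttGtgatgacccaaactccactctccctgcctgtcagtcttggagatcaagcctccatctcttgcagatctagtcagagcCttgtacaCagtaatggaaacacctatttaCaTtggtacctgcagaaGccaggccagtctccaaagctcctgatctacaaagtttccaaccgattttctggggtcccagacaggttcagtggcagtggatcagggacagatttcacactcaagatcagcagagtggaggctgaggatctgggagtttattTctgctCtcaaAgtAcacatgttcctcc
Igkv1-117: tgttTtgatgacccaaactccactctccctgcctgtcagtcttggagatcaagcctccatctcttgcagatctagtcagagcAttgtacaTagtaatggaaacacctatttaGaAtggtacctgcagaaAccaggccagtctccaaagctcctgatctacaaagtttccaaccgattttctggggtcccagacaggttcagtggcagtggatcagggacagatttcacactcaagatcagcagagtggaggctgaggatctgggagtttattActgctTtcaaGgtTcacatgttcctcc

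Igkv10-96 (chr6:68631963-68632442, minus strand) and Igkv10-94 (chr6:68704508-68704978, minus strand) differ at 16 bases, with a longest shared run of 84.
Igkv10-96: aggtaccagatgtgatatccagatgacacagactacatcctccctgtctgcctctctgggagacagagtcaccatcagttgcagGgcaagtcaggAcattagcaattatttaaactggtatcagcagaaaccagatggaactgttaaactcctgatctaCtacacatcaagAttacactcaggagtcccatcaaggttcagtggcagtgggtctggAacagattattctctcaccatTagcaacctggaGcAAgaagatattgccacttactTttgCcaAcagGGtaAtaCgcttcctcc
Igkv10-94: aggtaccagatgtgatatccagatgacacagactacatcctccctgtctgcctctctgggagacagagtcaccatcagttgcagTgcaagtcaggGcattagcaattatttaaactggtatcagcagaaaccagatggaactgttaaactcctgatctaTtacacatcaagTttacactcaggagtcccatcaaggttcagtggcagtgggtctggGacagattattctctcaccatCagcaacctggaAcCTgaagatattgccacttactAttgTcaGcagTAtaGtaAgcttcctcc

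These relatives were told apart to different degrees. In the 19 plasma cells with dominant Ighv1-53, Ighv1-55 also held at least 3 UMIs in 16, and took 16.5% of the UMIs of the pair. In the 10 cells with dominant Ighv1-55 there were 0 UMIs of Ighv1-53. The pair Igkv1-110 and Igkv1-117 was uneven in the same way. Igkv1-117 reached 3 UMIs in 19 of 26 cells led by Igkv1-110, at 4.13% of the pair's UMIs, while Igkv1-110 reached 3 UMIs in 0 of 23 cells led by Igkv1-117 and 1 UMI in 6. All 10 cells led by Ighv1-72 held Ighv1-62-3, at 31.9% of the pair's UMIs. Igkv10-94, in contrast, reached 3 UMIs in 0 of 37 cells led by Igkv10-96 and 1 UMI in 4. Reads from somatically mutated V genes are compared with germline sequence, and the sources used here do not say how reads matching several genes were counted, so calls between such relatives are uncertain.

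In plasma cells nearly every barcode had a V gene to name. A dominant Ighv was called in 404 of 423 plasma cells, 95.5% with an exact 95% binomial (Clopper-Pearson) interval of 93.1 to 97.3%, which like all intervals here covers counting error only. Suffix 3 gave 101 of 111 and suffix 4 gave 298 of 307. A dominant Igkv was called in 374 cells, 88.4% (84.98 to 91.3%), with 98 of 111 in suffix 3 and 273 of 307 in suffix 4. The cells of suffixes 1 and 2 were too few for a share. The median cell held 39 Ighv and 79 Igkv UMIs. The highest cell held 1443 and 1513 respectively. Where a gene was called it took nearly all of the cell's V UMIs, with a median of 100% for Ighv and 99.1% for Igkv. The dominant gene held at least 95% in 303 of 404 cells for Ighv (75.0%) and in 294 of 374 for Igkv (78.6%).

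**Figure D1:**
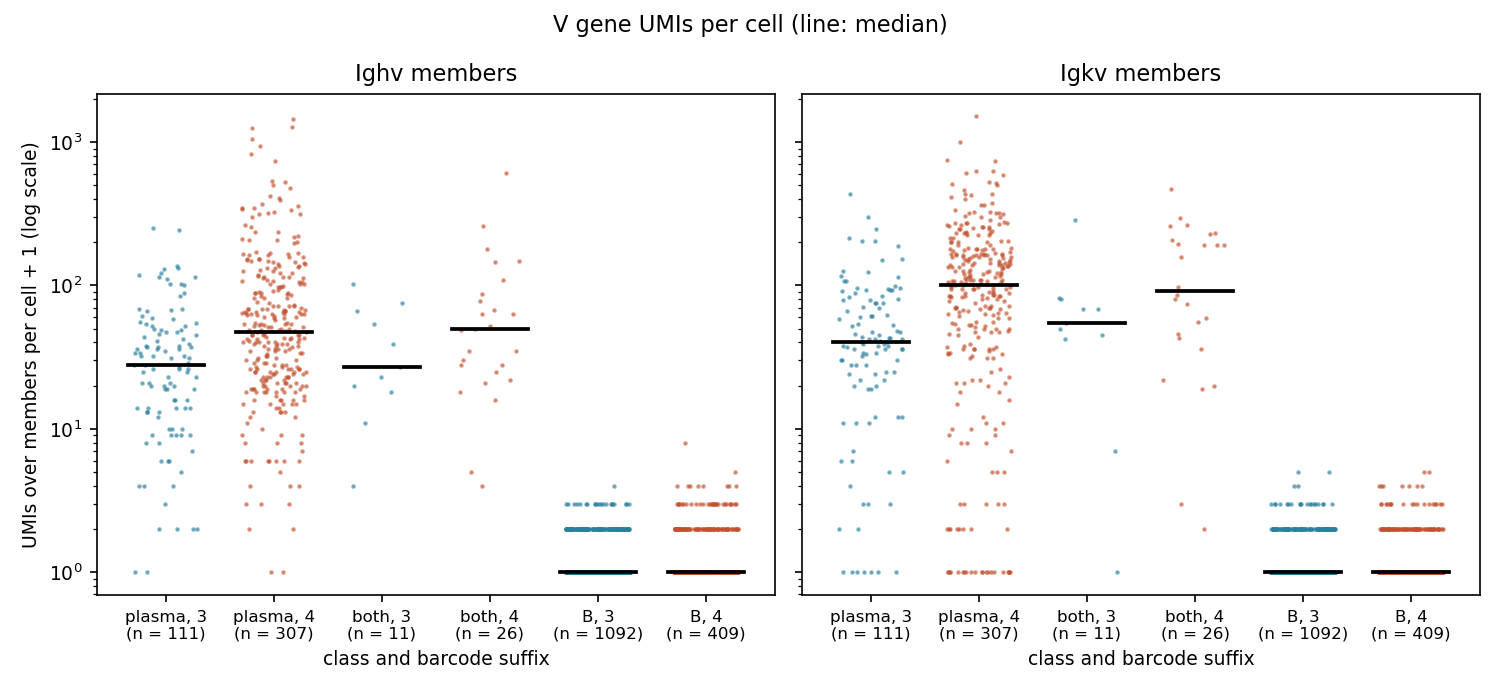
UMIs over the Ighv members (left) and Igkv members (right) per cell plus 1, on a log axis, for plasma cells, barcodes meeting both rules and B cells of suffixes 3 and 4. Points are cells and lines are medians; plasma cells of suffix 4 had medians of 46 Ighv and 100 Igkv UMIs, those of suffix 3 had 27 and 39, and the B cell medians were 0.

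The heavy chain usage was broad. Plasma cells were led by 71 different Ighv genes, 14 of them in 1 cell, and the 10 most frequent covered 40.8% of the calls. Their inverse Simpson index, the number of equally frequent genes that would give the same diversity, was 36.3. Ighv1-26 was dominant in most cells, 33 of 404 (8.17%, 5.69 to 11.3%), 5 in suffix 3 and 28 in suffix 4. It held 3 to 100 UMIs in those cells, with a median of 18. Among the 150 plasma cells with under 3 other-lineage UMIs it led 9, behind Ighv1-53 with 11. Ighv10-1 led 22 cells, 2 in suffix 2, 0 in suffix 3 and 20 in suffix 4, at 24 to 450 UMIs. Ighv1-53 led 19 cells (4 in suffix 3 and 15 in suffix 4) and Ighv1-81 led 18 (7 and 11).

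Several heavy genes leaned to a suffix. Ighv7-3 led 15 cells, 1 in suffix 2 and 14 in suffix 4. With Ighv10-1 it was absent among the 101 called cells of suffix 3. A bound set at 3 cells, which is not an exact interval, is a share of 2.97% there. Ighv2-9-1 led 14 cells, 9 in suffix 3 (8.91% of its calls) and 5 in suffix 4 (1.68%), and was the most frequent gene of suffix 3. Ighv3-6 led 11 cells, 7 in suffix 3 and 4 in suffix 4, whereas Ighv1-82 led 13 cells with 1 and 12. Ighv1-22, Ighv1-55 and Ighv1-72 led 10 cells each. As no source used here pairs the suffixes with samples, no test of these differences was possible.

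**Figure D2:**
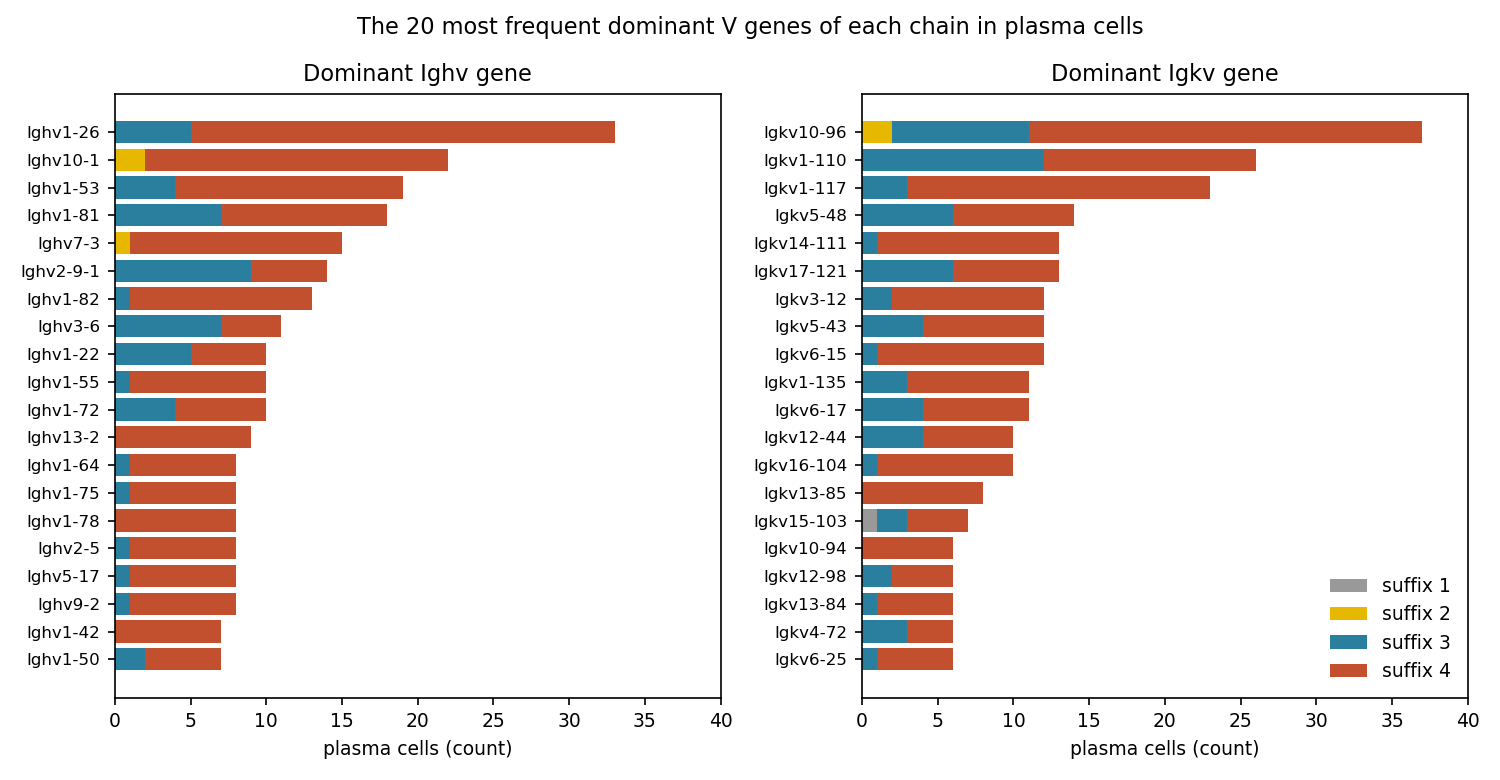
Number of plasma cells in which each gene was dominant, for the 20 most frequent Ighv (left) and Igkv (right) genes, with bars stacked by barcode suffix. Ighv1-26 leads with 33 cells and Igkv10-96 with 37, while no cell of suffix 3 is led by Ighv10-1 or Ighv7-3.

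By family, the large Ighv1 group (44 of the 83 Ighv members) held 219 of 404 heavy calls, 54.2% (49.2 to 59.1%). That share was near the family's part of the members. The next families were Ighv2 with 33 cells (6 members), Ighv5 with 27 (8 members) and Ighv10 with 24 (2 members). Counts of cells and counts of molecules ranked the families differently. Ighv1 contributed 31.7% of the plasma cells' Ighv UMIs, while the only Ighv13 member, Ighv13-2, led 9 cells (2.23%) and gave 12.3% of the UMIs.

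Kappa usage was similarly broad. Plasma cells were led by 66 Igkv genes, 15 of them in 1 cell, with an inverse Simpson index of 29.6 and 46.3% of the calls in the 10 most frequent. Igkv10-96 led 37 of 374 cells (9.89%, 7.06 to 13.4%), with 2, 9 and 26 cells in suffixes 2, 3 and 4. Igkv1-110 led 26 cells, 12 in suffix 3 and 14 in suffix 4, which is 12.2% of the calls of suffix 3 and 5.13% of those of suffix 4. Of these 26 cells, 25 held at least 3 other-lineage UMIs (64.5% of all plasma cells did), so that it led 1 cell without them. Igkv1-117 led 23 cells, 3 in suffix 3 and 20 in suffix 4. Igkv5-48 led 14, Igkv14-111 and Igkv17-121 led 13 each, and Igkv3-12, Igkv5-43 and Igkv6-15 led 12 each. Igkv1-135 and Igkv6-17 followed with 11. Of these, Igkv14-111 and Igkv6-15 each had 1 cell in suffix 3, and Igkv17-121 had 6 in suffix 3 and 7 in suffix 4.

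The family order for kappa was Igkv1 with 62 cells (16.6%), Igkv4 with 45 (12.03%), and Igkv10 and Igkv6 with 43 each (11.5%). Of the 71 Igkv members, these families have 5, 18, 2 and 8, so the order by cells is not one by family size. Suffixes 3 and 4 drew on overlapping sets of genes. They shared 36 Ighv genes, 78.3% of the 46 seen in suffix 3 and 59.0% of the 61 seen in suffix 4. They also shared 36 Igkv genes, 87.8% of 41 and 59.0% of 61.

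Along the chromosome, calls came from the whole of each locus. The annotated genes were placed in 3 bins of near-equal gene number by distance from the J segments. For Ighv, the bin nearest to J (149 to 833 kb) gave 29.8% of plasma calls, the middle bin 34.99% and the farthest (1626 to 2570 kb) 35.2%. For Igkv the nearest bin (18.7 to 822 kb) gave 23.3%, the middle bin 27.8% and the farthest (1915 to 3167 kb) 48.9%. The interval of the farthest kappa bin, 43.8 to 54.1%, lay above those of the other bins. It holds Igkv10-96, Igkv1-110 and Igkv1-117.

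Heavy and light calls could be joined in 361 plasma cells. These held 235 different heavy-light pairs, of which 167 occurred in 1 cell and 68 in at least 2. The 68 repeated pairs took in 194 cells (53.7%), and 31 pairs in at least 3 cells took in 120 (33.2%). Counted within each set, repeated pairs took in 37.2% of the 121 paired cells with under 3 other-lineage UMIs and 47.5% of the 240 others. Such a share also falls as fewer cells are counted. The most frequent pair was Ighv9-2 with Igkv13-85, in 7 cells, all in suffix 4 and all IgA, of which 6 held at least 3 other-lineage UMIs. The 7 cells were 7 of the 8 paired cells of either gene, so this heavy and this light gene were seldom found apart. Ighv1-26 with Igkv6-15 was found in 6 cells, all in suffix 4. Ighv1-50 with Igkv10-96 was found in 6 of the 7 paired Ighv1-50 cells, 2 in suffix 3 and 4 in suffix 4.

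Ighv2-9-1 was joined with 5 light genes over its 14 paired cells. With Igkv1-110 it was found in 6 cells, 3 in each of suffixes 3 and 4, and with Igkv5-48 in 5 cells, all in suffix 3. Igkv5-48 itself was joined with Ighv13-2 in 5 cells, all in suffix 4. Ighv1-81 with Igkv3-12 (5 cells, suffix 4) and Ighv10-1 with Igkv10-96 (1 in suffix 2 and 4 in suffix 4) were as frequent. Other leading genes were spread thinly: the 31 paired Ighv1-26 cells had 12 light partners, the 19 Ighv1-53 cells had 13, and the 35 Igkv10-96 cells had 16 heavy partners. Of the 31 pairs in at least 3 cells, 23 lay in a single suffix and 6 in suffixes 3 and 4. The files hold no junction sequences, so a shared pair does not show a shared ancestor cell.

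**Figure D3:**
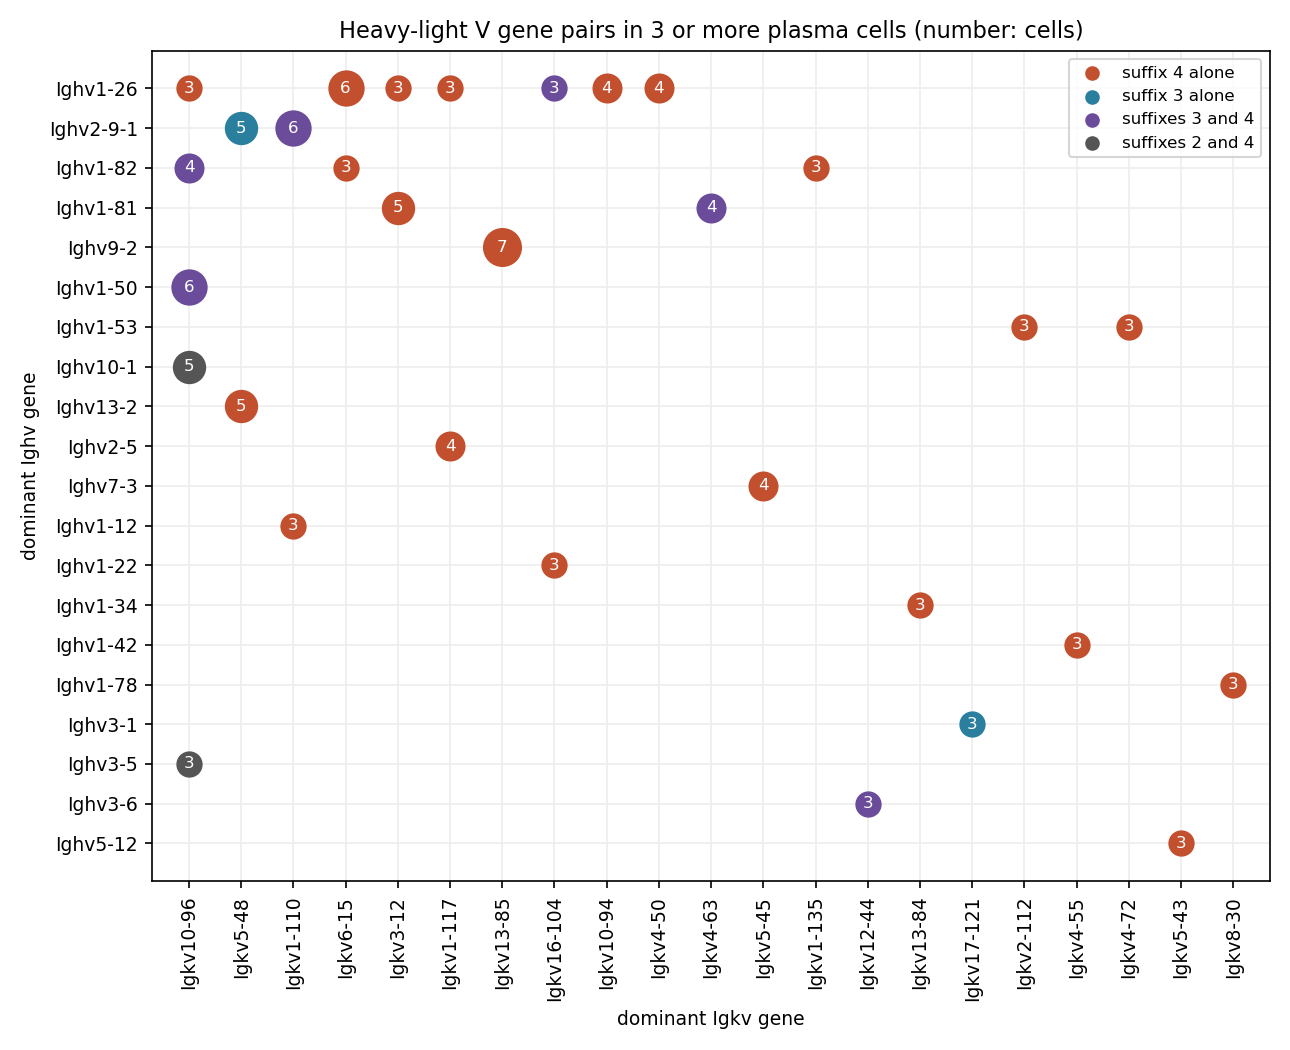
Heavy-light V gene pairs found in at least 3 plasma cells, with the dominant Ighv gene on the vertical axis and the dominant Igkv gene on the horizontal axis. Circle size and number give the cells and colour gives the barcode suffixes; the largest circle is Ighv9-2 with Igkv13-85 (7 cells), and Ighv1-26 pairs with 7 different kappa genes.

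Cells without a kappa call were mostly lambda cells. In 47 plasma cells the lambda constant genes (Iglc1 to Iglc3) together held more UMIs than the kappa constant gene Igkc. Of the 49 plasma cells with no Igkv call, 39 were lambda cells (79.6%), against 8 of the 374 with one (2.14%). Of the 47, 12 were in suffix 3 and 33 in suffix 4.

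Lambda cells used few heavy genes often. Of the 22 cells led by Ighv10-1, 13 were lambda, 12 of them in suffix 4 and 12 with Iglv1 as the leading lambda V gene. Iglv1 also reached 3 UMIs in 340 of the 376 plasma cells that were not lambda, at a median of 26 UMIs. Its lead in a cell therefore does not by itself show a heavy-light pair. Ighv7-3 was lambda in 9 of 15 cells, 8 of them in suffix 4, and Ighv3-6 in 4 of 11, all in suffix 3. These 3 heavy genes thus held 26 of the 46 lambda cells with a heavy call. In contrast, lambda was found in 1 of 33 Ighv1-26 cells and in 0 of 19 Ighv1-53 cells, and the lambda cells were led by 20 Ighv genes in all. When the cells with 3 or more other-lineage UMIs were left out, Ighv10-1 was lambda in 7 of 10 cells and Ighv7-3 in 3 of 6.

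**Figure D4:**
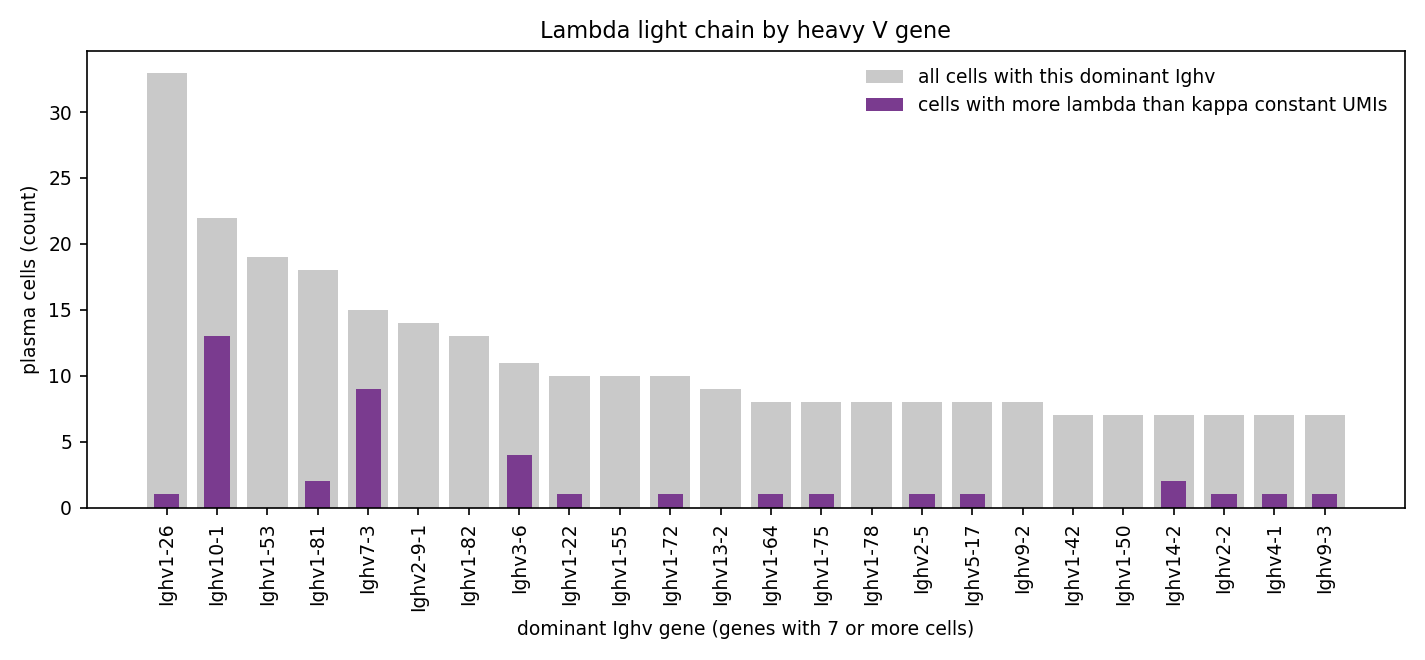
Plasma cells led by each Ighv gene with at least 7 cells (grey bars) and those among them with more lambda than kappa constant UMIs (purple bars). Ighv10-1 (13 of 22) and Ighv7-3 (9 of 15) have more lambda cells than any other gene shown.

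By constant gene, 413 of 423 plasma cells (97.6%, 95.7 to 98.9%) had Igha as their leading heavy constant gene. The others were led by Ighm in 4 cells, Ighg2b in 3, Ighg1 in 2 and Ighg2c in 1. As the plasma rule used Jchain, which links IgA polymers, these counts describe cells chosen by that rule and not all plasma cells. All 3 Ighg2b cells were in suffix 4 and led by Igkv14-111, and 2 of them by Ighv1-82, the other having no heavy call. None of the 413 Igha cells carried Ighv1-82 with Igkv14-111. The same set returned in the barcodes that met both rules, where 6 of 37 were led by Ighg2b. Of these 6, 5 had Ighv1-82 and Igkv14-111, again all in suffix 4. Ighv1-82 otherwise led 11 Igha plasma cells with the light genes Igkv10-96, Igkv1-135, Igkv6-15 and Igkv1-117.

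A runner-up V gene was found in a minority of plasma cells. At least 3 UMIs of another Ighv were present in 80 of 423 cells (18.9%) and of another Igkv in 89 (21.0%). For Ighv the runner-up was usually a close relative of the leading gene, with a median identity of 94.7% over the last 300 bases and at least 90% in 59 of the 80 cells. The leading genes' median identity to all members was 80.3%. For Igkv the median was 65.0% against 64.0%, and 29 of 89 were at least 90% identical. Cells with a runner-up Igkv held a median of 39988 UMIs and the others 32364. The share with a runner-up was 14.0% for both chains in plasma cells with under 3 other-lineage UMIs, and 21.6% for Ighv and 24.9% for Igkv in the rest. What produced the runner-up UMIs was not tested.

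The kappa runner-up that recurred most was not a relative. Igkv3-1, which lies 18.7 kb from the J segments and is the nearest member to them, was the runner-up in 24 cells led by 20 different genes, with a median identity of 64.5%. Its neighbour Igkv3-2, 23.8 kb away, was the runner-up in 9 cells led by 8 genes. They were themselves dominant in 4 and 3 cells.

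V genes also differed in how many molecules a cell yielded. Per 100 UMIs of the cell's heavy constant genes, the dominant Ighv held a median of 0.781. Per 100 of the kappa constant gene Igkc, the dominant Igkv held a median of 0.662, over 372 cells. The coding lengths of the compared genes were alike, 350 to 361 bases for Ighv and 347 to 365 for Igkv. Among 31 Ighv genes with at least 5 cells, the medians ran from 0.265 for Ighv1-72 to 6.00 for Ighv13-2, and Ighv1-26 stood at 0.419 and Ighv10-1 at 4.20. Among 29 Igkv genes they ran from 0.104 for Igkv13-84 to 2.53 for Igkv5-43, the member with most UMIs (5398) although it led only 12 cells. Across genes, Spearman's rho between this ratio and the identity to the nearest relative was -0.54 for Ighv and -0.04 for Igkv, as a description of genes that share cells and libraries. Suffix 3 gave lower ratios than suffix 4 for Igkv10-96 (0.302 against 1.05), Igkv1-110 (0.339 against 0.727) and Ighv1-53 (0.332 against 0.848), but not for Ighv1-26 (0.421 against 0.419).

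B cells, at a median of 4290 UMIs per cell against 33236 in plasma cells, yielded few V molecules. The cause was not tested. At least 1 Ighv UMI was seen in 20.1% of the 1505 B cells (18.1 to 22.2%), 16.0% in suffix 3 and 31.1% in suffix 4. The share for Igkv was 17.9%, 14.1% in suffix 3 and 27.6% in suffix 4. T cells, which should lack these transcripts, had 1.95% for Ighv and 2.98% for Igkv at a median of 4995 UMIs. Macrophages had 3.41 and 4.95%, neutrophils 1.53 and 3.54% and epithelial cells 0.134 and 0.670%. The marker rules of these comparison classes were chosen after the data had been seen. Thinned to 1000 UMIs per cell, B cells had 5.54% for Ighv and 4.403% for Igkv (6 cells left out), T cells 0.441 and 1.16% (25 left out) and plasma cells 68.7 and 74.2% (1 left out). The B cell shares were thus above the T cell background at equal depth.

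At the threshold of 3 UMIs, 8 B cells (0.532%) had a dominant Ighv and 9 (0.598%) a dominant Igkv. Ighv6-6 led 2 of the 8, and Ighv1-15, Ighv10-1, Ighv10-3, Ighv6-3, Ighv7-3 and Ighv9-1 led 1 each. Igkv1-135 led 2 of the 9, and Igkv10-94, Igkv12-41, Igkv12-44, Igkv17-121, Igkv3-10, Igkv4-57 and Igkv6-13 led 1 each. No B cell had both calls, so no pairs can be given for B cells.

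With a minimum of 1 UMI and no minimum share, an alternative added after the data had been seen, 294 B cells had a leading Ighv and 254 a leading Igkv, from 64 and 53 genes. Ighv3-6 led 20 cells (6.80%), Ighv1-26 led 19 (6.46%) and Ighv1-64 led 15, and for kappa Igkv1-135 led 21 (8.27%), Igkv6-15 led 16 and Igkv14-111 led 15. The Ighv1 family held 54.1% of these heavy calls, close to its share in plasma cells called the same way (55.4%). The intervals of the B and plasma shares overlapped for 76 of 77 Ighv and 65 of 68 Igkv genes. The exceptions were Igkv10-96, with 39 of 393 plasma cells (9.92%) and 6 of 254 B cells (2.36%), and 3 genes with higher shares in B cells. These were Ighv1-15 (9 B cells and 1 plasma cell), Igkv12-46 (11 and 1) and Igkv19-93 (10 and 1). These shares pool suffixes that hold different proportions of B and plasma cells. Within suffix 3 the intervals overlapped for all 77 Ighv and all 68 Igkv genes, and within suffix 4 for all but Ighv1-15 (5 of 123 B cells and 0 of 303 plasma cells). These tallies include genes with 0 cells of either class in the suffix, such as Ighv1-34 in suffix 3 and Ighv1-31 in suffix 4. Genes with few cells could not separate, here or over all suffixes, so the number of overlaps does not show equal usage. Igkv10-96 led 9.62% of plasma and 2.74% of B cells in suffix 3, and 9.47 and 1.89% in suffix 4. Of the 10 B cells led by Igkv19-93, 9 were in suffix 3, and its plasma cell was in suffix 4. Some of the UMIs behind these B cell calls can come from free plasma cell RNA, whose part was not tested.

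**Figure D5:**
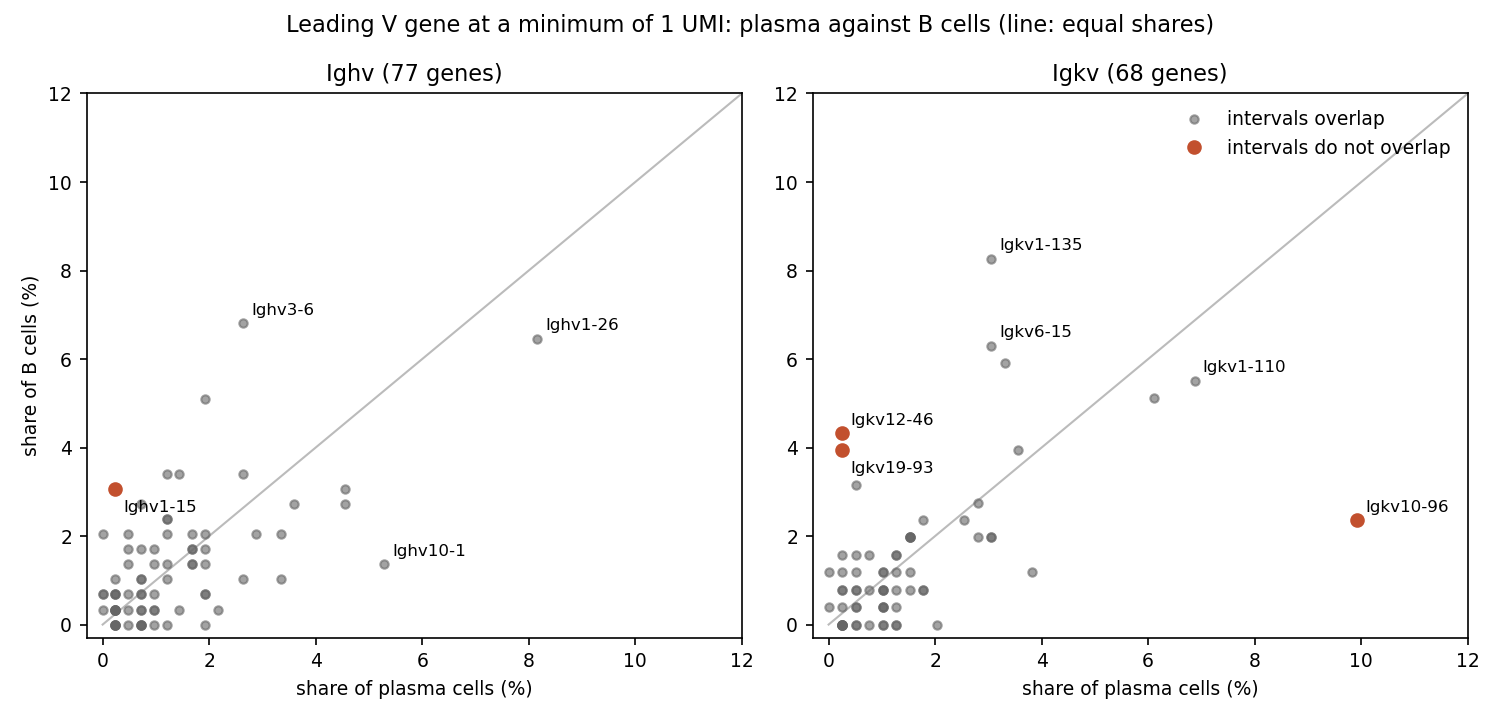
Share of plasma cells (horizontal) and of B cells (vertical) led by each Ighv gene (left) and Igkv gene (right) at a minimum of 1 UMI and no minimum share, in percent, with a line at equal shares. Red points are genes whose exact 95% intervals, over all suffixes, do not overlap: Igkv10-96 lies to the right of the line at 9.92 and 2.36%, and Ighv1-15, Igkv12-46 and Igkv19-93 lie above it.

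Most V gene UMIs fell in plasma cells. Of 93265 member UMIs, 90.8% were in plasma cells, 0.767% in B cells, 7.41% in the barcodes meeting both rules and 1.08% elsewhere. The 10 most abundant members held 39.7%, and the range ran from 10 UMIs, for Ighv1-25 and Igkv4-74, to 5398. Just outside the minimum stood Ighv8-7, Igkv1-122 and Igkv4-78 with 9 UMIs each. GENCODE lists 149 members as V genes and 5 as pseudogenes (Ighv1-25, Ighv1-33, Ighv1-70, Ighv4-2 and Igkv3-11).

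In CPM summed over the class, with 1 CPM added to each value, 135 of 154 members were at least 2-fold higher in plasma than in B cells, against 3.1% of all 17469 genes with at least 10 UMIs. The reverse held for 1 member, Ighv9-1, with 0 UMIs in plasma and 10 in B cells, against 43.7% of all genes. Since most members reached 10 UMIs through plasma cells, this count is a description. The median log2 fold was 3.48 (3.42 with members at 0 UMIs in B cells set at the level of 3 UMIs over the class), while that of all genes was -0.80. The size of this median depends on the value added and on suffix 4: it was 1.27 with 10 CPM added, 5.21 with 0.1 CPM added, and 2.13 without suffix 4. Immunoglobulin genes took 66.3% of plasma UMIs and 1.16% of those of B cells, and scaled to the other genes alone the median of all genes was 0.00 and that of the members 4.98, 147 members were higher and 11.8% of all genes were.

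The other genes of antibody production were compared in the same classes. Over all 17469 genes with at least 10 UMIs, 3.1% were at least 2-fold higher in plasma cells and 43.7% lower. All 14 genes of the secretory pathway, including Mzb1, on which the class was chosen, were at least 2-fold higher in plasma cells, by log2 folds from 1.71 for the elongation factor Ell2 to 5.58 for Derl3, which helps remove misfolded proteins from the endoplasmic reticulum. Creld2 (3.90) and Txndc5 (4.20), which act in protein folding there, were among the highest, and Hspa5 (1.85) and Dnajb9 (1.86), chaperones of the unfolded protein response, among the lowest. All 7 light constant and lambda V genes were higher, from Iglc3 (3.67) to Iglv1 (7.64). Of 8 heavy constant genes 4 were higher, led by Igha (8.04), and Ighd, the constant gene of the IgD of mature B cells, was lower (-9.30). Ighm was at -0.91, which turns positive when immunoglobulin UMIs are left out of the scaling.

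Transcription factors that act on immunoglobulin genes were split. Xbp1 (4.30) and Prdm1 (1.79), which drive the plasma cell programme, were at least 2-fold higher in plasma cells. The B cell factors Pax5 (-7.87), Spib (-7.15) and Ebf1 (-6.26) were among 8 of 12 that were lower. Scaled to the genes other than immunoglobulin genes, 6 of the 12 were lower. Of all 17469 genes, 7638 (43.7%) were lower, and 1723 under that other scaling. Of 10 measured recombination and class-switch genes, 7 were lower and 0 higher, against 43.7 and 3.1% of all genes. Under the other scaling 2 of the 10 were lower and 1 higher, against 1723 and 2058 of the 17469 genes. Rag1 and Rag2, which cut V, D and J segments, had 0 UMIs in both classes, which allows up to 0.212 and 0.370 CPM.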

How the data were processed

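Per the labels' protocols, the libraries came from the V3 chemistry of the 10x Genomics 3′ assay, so reads start at the poly(A) end of a transcript. How far this limits the detection of V segments was not tested. The authors deposited UMI counts with no normalization, and the submitters' processing notes name Cell Ranger 3.0.2 and mm10. The annotation, and the treatment of reads matching several genes, were not given in the sources used here.

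From these counts, barcodes were filtered, classed and called with the thresholds given in the text, in numpy 2.4.6, scipy 1.17.1 and pandas 2.3.3. Rows of the same symbol were kept apart by gene ID. Gene positions, types and sequences came from GENCODE vM21 (GRCm38), and identities from alignments of the last 300 transcript bases with Biopython 1.88. Intervals are exact binomial or Poisson at 95% and cover counting error only. With 1 sample per group and no map from barcode suffixes to samples, p-values were not computed. The calling and fold steps were tested on simulated data. The members, lists and tests were chosen with earlier results of these data known. Genes named by rule were the 10 Ighv and 10 Igkv dominant in most cells of each class, the 5 most frequent pairs, the members with fewest and most UMIs, and, for lists, genes with the highest and lowest folds. Other genes named were chosen after their values were seen. Alternatives covered the UMI and share minimums, the cell filter, the class rules, the added CPM, the scaling and each suffix.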

Additional observations from a re-analysis of the deposited data

Results flagged for a closer look

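Outside the plasma and B cells, 16 of 12233 barcodes that met neither rule had a dominant Ighv (0.131%) and 19 a dominant Igkv (0.155%). Their median Jchain share was 1.25 and 1.77% of UMIs, at medians of 3279 and 3959 UMIs. Of the 37 barcodes that met both rules, 94.6% had a dominant Ighv and 91.9% a dominant Igkv, at a median of 36354 UMIs per barcode, and 9 and 6 of those called held at least 3 UMIs of a runner-up gene. Among the 374 plasma cells with a dominant Igkv, 94.9% also held at least 3 UMIs of lambda V genes. Over the 376 plasma cells in which kappa constant UMIs were at least as many as lambda ones, Iglv1 ran from 0 to 591 UMIs with a median of 26, and over the 47 lambda cells from 4 to 753 with a median of 118. What produced these UMIs was not tested.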

How the results depend on the processing

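No paired analysis was possible because each group holds 1 sample and no column of counts is tied to a sample. Of 133 values under alternatives, 109 stayed within the interval of the value given in the report (for counts, within 1.5 times) and 24 did not. The cause was not tested beyond what each alternative changes by construction. Shares of plasma cells with a dominant Ighv and Igkv were 86.3 and 83.2% at 10 UMIs, 85.8 and 83.5% at a share of 80%, and 98.6 and 92.9% at 1 UMI with no minimum share. Without cells holding at least 3 other-lineage UMIs the Ighv share was 90.7% and the different Ighv genes fell to 45 in 150 cells, led by Ighv1-53 (11) ahead of Ighv1-26 (9), and Igkv1-110 led 1 cell. B cell shares were 3.52% for Ighv and 2.33% for Igkv at 2 UMIs (30 Ighv genes), 0% for both at 10 UMIs (0 Ighv genes, so no most frequent gene), and 19.5 and 16.9% at 1 UMI with no minimum share (64 Ighv genes).

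Leaving out each suffix in turn gave 91.4 to 97.1% for Ighv in plasma cells, 0.0912 to 1.70% for Ighv and 0.365 to 1.21% for Igkv in B cells. The most frequent Ighv of B cells took 25 to 100% of calls, the different Ighv genes of B cells numbered 1 to 7, and the members numbered 99 to 154. Without suffix 4, Ighv2-9-1 (9 of 106) and Igkv1-110 (12 of 101) were the most frequent in plasma cells, and 94 members were at least 2-fold higher in plasma than in B cells. B cell calls at 3 UMIs rest on 8 cells for Ighv and 9 for Igkv.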

Other observations

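V gene UMIs in barcodes of neither class followed the plasma cells of the same suffix to different degrees. In suffix 4, 361 Ighv and 492 Igkv UMIs were spread over 6640 such barcodes, and Spearman's rho across genes with the plasma totals of that suffix was 0.64 over 83 Ighv and 0.75 over 71 Igkv members. In suffix 3, with 52 and 83 UMIs in 3302 barcodes, it was 0.38 and 0.48. Genes are not independent replicates here, and totals of few UMIs limit these values.

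Igkv1-110 had the highest share of cells with other-lineage markers among the 11 frequent kappa genes named in the report, a value picked after it was seen. Of its 26 plasma cells, 25 held at least 3 UMIs of those 15 markers (96.2%, against 64.5% of all plasma cells). Without Epcam the count was 12 (46.2%, against 26.7%), and Epcam itself reached 3 UMIs in 16 (61.5%, against 39.95%). The other 10 ran from 42.9 to 72.7% for all 15 markers, from 15.4 to 41.7% (Igkv3-12 and Igkv5-43) without Epcam, and from 8.33 to 54.55% (Igkv6-17) for Epcam.

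In B cells the leading heavy constant gene was Ighm in 66.8%, Ighd in 11.96%, Igha in 7.71% and Ighg2b in 4.92%, while 7.04% had a tie. The Igha share was 5.22% in suffix 3 and 14.4% in suffix 4, and the Ighd share 14.1 and 6.36%. Suffix 3 held 111 plasma cells and suffix 4 held 307. The part of free plasma cell RNA in the Igha counts of B cells was not tested, so these shares are not counts of class-switched B cells.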
